A study of Anopheles gambiae with 3 samples.

Results

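The X-linked transcripts of the malaria mosquito Anopheles gambiae were measured as the 1403 probe sets whose IDs place them on the X chromosome, out of 22761 on the array. A probe set is a group of short oligonucleotides that reads a transcript or, for some IDs, several related ones. They were compared with the 13543 probe sets placed on the autosomal arms 2L, 2R, 3L and 3R. The members were chosen by their IDs alone, without use of any measured value. The samples were 3 pools of 5 whole adult females of the pink-eye strain, each hybridised to its own Affymetrix array. All pools formed 1 group: females fed on mice at 4 days of age, given mouse blood again 48 h later, and collected 24 h after that, within the same egg cycle. They had been caged with males until the earlier meal. No differently fed or unfed group was analysed here, so every comparison below is between chromosomes within the same arrays.

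Females of this species carry 2 X chromosomes and males carry an X and a Y. In females the X is therefore present in as many copies as each autosome. In males, which lack the second copy, transcription of the X is raised, a process called dosage compensation. A blood meal starts yolk synthesis in the fat body and egg growth in the ovary, so a whole blood-fed female holds much RNA from reproductive and digestive tissue. In such bulk samples, fewer cells of a type and less RNA per cell cannot be told apart.

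The X took a similar share of the array as of the genome's genes. X probe sets made up 9.39% of the 14946 mosquito probe sets with a named arm, and the X held 1171 of 12492 protein-coding genes (9.37%) on chromosomes 2, 3 and X in the RefSeq table of assembly idAnoGambNW_F1_1. The 1403 probe sets fell into 1242 clusters, the numbered units of the IDs. On X, 1118 probe sets were marked CDS (79.7%), 68 were marked UTR (4.85%) and 217 carried neither mark (15.5%). The same shares on the autosomes were 82.2%, 5.21% and 12.5%. CDS and UTR are taken to mean coding sequence and untranslated region. No file used here pairs these IDs with genes (0 of the 1403 X IDs were found in the reference table), so no gene can be named and tissue or cell type markers could not be checked.

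X transcripts were measured at lower levels than autosomal transcripts in every pool. The median X intensity was 281.7, 279.8 and 297.2 in pools 1, 2 and 3. The median autosomal intensity was 368.6, 362.2 and 365.4 in the same pools. The ranges did not overlap, with all X medians below all autosomal medians. The level of a probe set is hereafter log2 of its mean intensity over the 3 arrays. By this measure the X median was 8.17 and the autosomal median 8.53, a difference of -0.36 log2 or an X to autosome ratio of 0.779. Taken array by array the difference was -0.39, -0.37 and -0.30 log2, a mean of -0.35 ± 0.05 (SD, n = 3). It was negative in 3 of 3 pools, and the exact sign-flip permutation test over pools, two-sided, gave p = 0.25, the smallest that 3 arrays allow. That p applies equally to each difference below that has the same sign in all pools. The SD covers the spread between pools only and says nothing of which genes happen to lie on X. Probe sets also differ in how strongly they bind, so distributions over many of them are compared. The smallest difference was that of pool 3, where the parasite probe sets that serve as background were also brightest (a median intensity of 12.1, against 9.32 and 9.48 in pools 1 and 2), and the part of that background in the result was not tested.

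The autosomal arms differed among themselves, and this sets a scale for the X. Their median levels ran from 8.38 on 3L to 8.63 on 2R, a span of 0.25 log2. The X median lay 0.21 log2 below that of 3L, the lowest autosomal arm. It was below all 4 arms in each of the 3 pools. Set against the other 3 autosomal arms, the median of 3L differed by -0.17 ± 0.02 log2 (SD, n = 3) and that of 2R by 0.17 ± 0.02, where X differed from all 4 by -0.35.

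**Figure D1:**
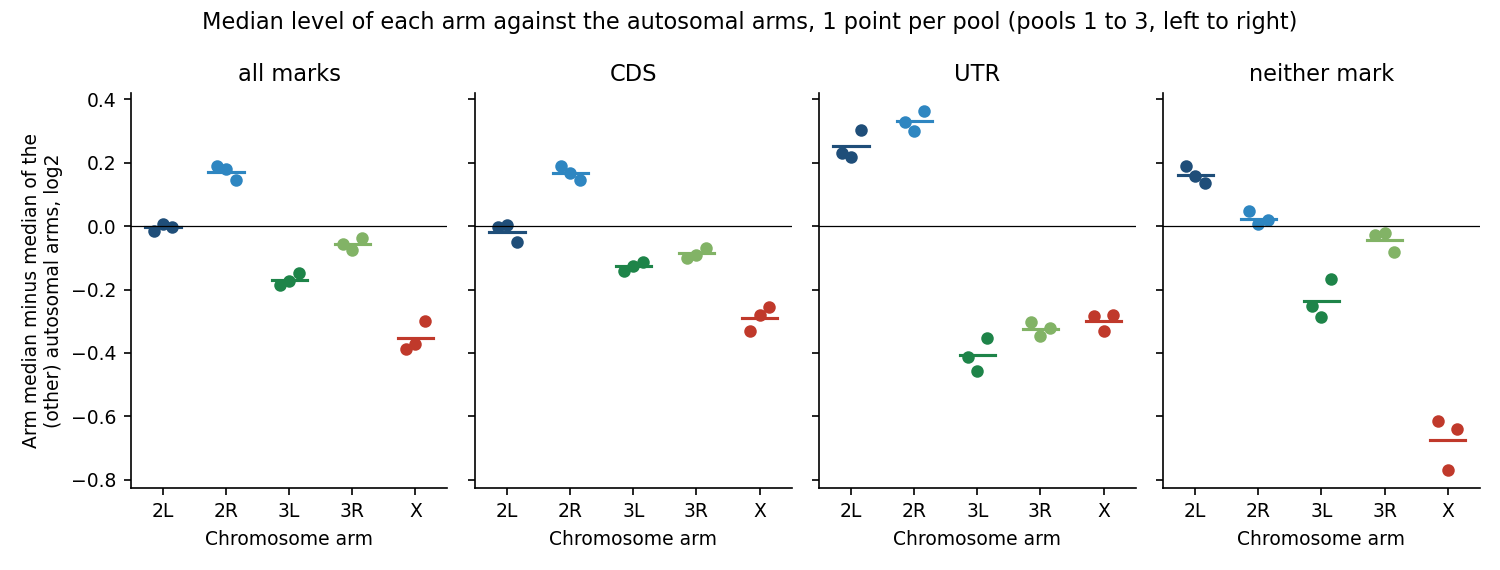
Difference in median log2 intensity between each chromosome arm and the autosomal arms, for all probe sets and for each transcript part mark. An autosomal arm is set against the other 3 and X against all 4. Each point is a pool and the bar is the mean of the 3 pools. X is lowest for all marks together (mean -0.35), for CDS (-0.29) and for neither mark (-0.68), while for UTR it lies beside 3L and 3R.

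Coding-sequence probe sets, the most numerous class, had a lower median on X than on any autosomal arm. The median X level was 8.07 over 1118 CDS probe sets, against 8.37 over 11139 on the autosomes, a ratio of 0.816. The difference was -0.33, -0.28 and -0.26 log2 in pools 1 to 3, a mean of -0.29 ± 0.04 (SD, n = 3). X lay below every autosomal arm in each pool, and the arms' median CDS levels ran from 8.26 to 8.48.

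UTR probe sets, the brightest part class, showed a like difference, but whether X lay below the single arms varied with the pool. The median X intensity over the 68 UTR probe sets was 1083, 1055 and 1079 in pools 1 to 3. On the autosomes it was 1308, 1327 and 1309. The difference was -0.30 ± 0.03 log2 (SD, n = 3), and the ratio of the median levels was 0.830. The X median level of 10.09 fell inside the range of the 4 arms, which ran from 10.00 on 3L to 10.57 on 2R, and lay next to the 10.08 of 3R. Pool by pool the X median was below 3 of the 4 arms in pools 1 and 2 and below all 4 in pool 3. With means in place of medians the UTR difference was -0.18 log2.

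With every probe set counted, those with neither mark showed the widest gap of the 3 part classes. The X median was 265.5, 239.9 and 268.9 in pools 1 to 3, against 406.9, 408.9 and 419.5 on the autosomes. The difference was -0.62, -0.77 and -0.64 log2, a mean of -0.68 ± 0.08 (SD, n = 3), and the ratio of the median levels was 0.663. X was below each autosomal arm in each pool. Among probe sets above background, those brighter in each of the 3 arrays than the 95th percentile of the 4502 Plasmodium probe sets, it was instead the narrowest, at -0.15 ± 0.07 log2 (SD, n = 3), against -0.25 ± 0.02 for CDS and -0.27 ± 0.12 for UTR. There X was below 3 of the 4 arms in each pool.

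**Figure D2:**
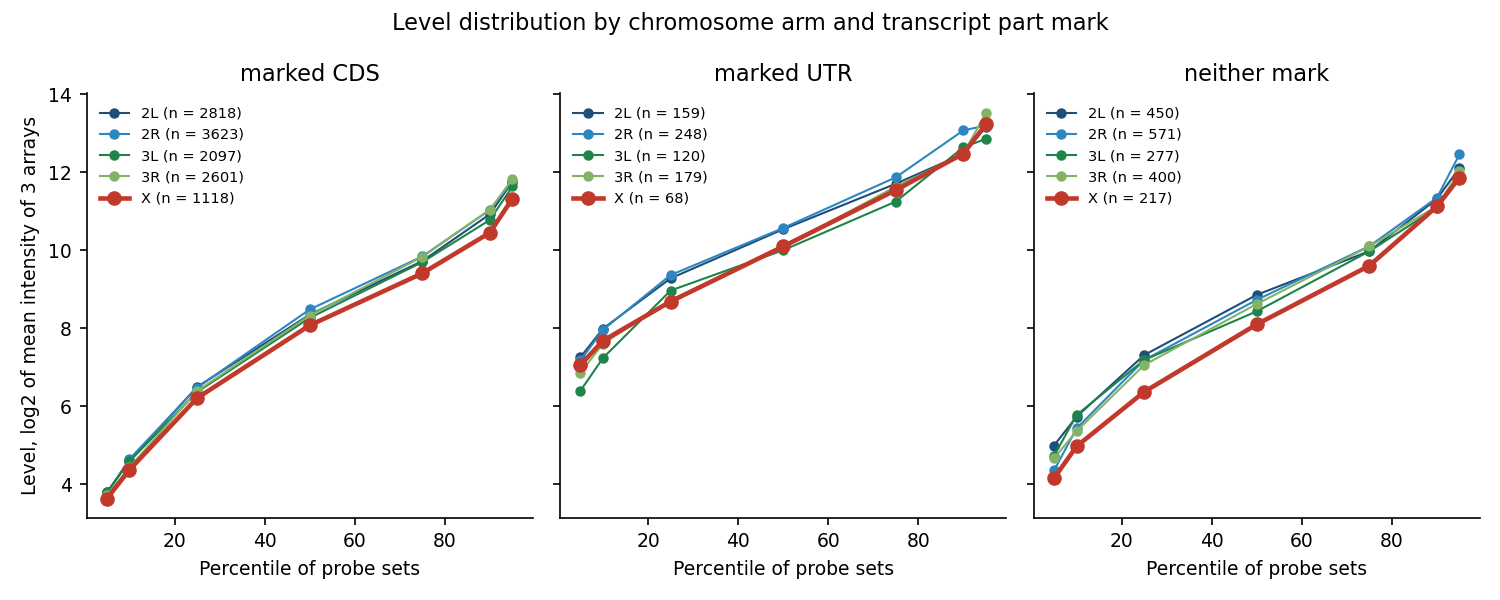
Percentiles of the level (log2 of the mean intensity of 3 arrays) of the probe sets of each chromosome arm, in separate panels for CDS, UTR and neither mark. The X line runs under all autosomal lines for CDS and, up to the 75th percentile, for neither mark, and between them at the UTR median (10.09 on X, 10.00 to 10.57 on the arms).

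The gap among probe sets with neither mark was found in clusters that hold no CDS probe set. There were 173 such probe sets on X, with median intensities of 208.0, 175.0 and 211.3 in pools 1 to 3. The 1249 autosomal ones gave 361.2, 353.1 and 374.5. The difference was -0.80, -1.01 and -0.83 log2, a mean of -0.88 ± 0.12 (SD, n = 3), a larger gap in every pool than for CDS. In clusters that also hold a CDS probe set the sign was the other way when every probe set was counted. The 44 probe sets of that kind on X had median intensities of 635.7, 649.2 and 681.0, against 566.9, 572.9 and 552.8 for 449 on the autosomes, a difference of 0.22 ± 0.07 log2 (SD, n = 3). The arms' median levels there ran from 9.05 to 9.46, with X at 9.40, and X was below 2, 1 and 0 of the 4 arms in pools 1, 2 and 3. Among probe sets above background the difference in clusters without CDS was -0.34 ± 0.08 log2 (SD, n = 3). In clusters with CDS it was 0.09 ± 0.11, with X lower in 1 of 3 pools. Both splits were made after the values had been seen. Of the 217 X probe sets with neither mark, 149 (68.7%) had cluster numbers beyond the last CDS cluster of the arm, against 59.5% on the autosomes. The median level of those 149 was 7.40 on X, where the autosomal counterpart was 8.26.

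For CDS probe sets, the presence of a UTR probe set in the same cluster went with a higher level on X as elsewhere, and X was lower in both cases. The 72 X CDS probe sets in clusters with a UTR probe set had a median level of 9.78, against 10.17 for 730 on the autosomes. The 1046 in clusters without one had 7.94, against 8.22 for 10409. Array by array the difference was -0.42 ± 0.05 and -0.25 ± 0.02 log2 (SD, n = 3). X was below each of the 4 arms in each pool in both classes.

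**Figure D3:**
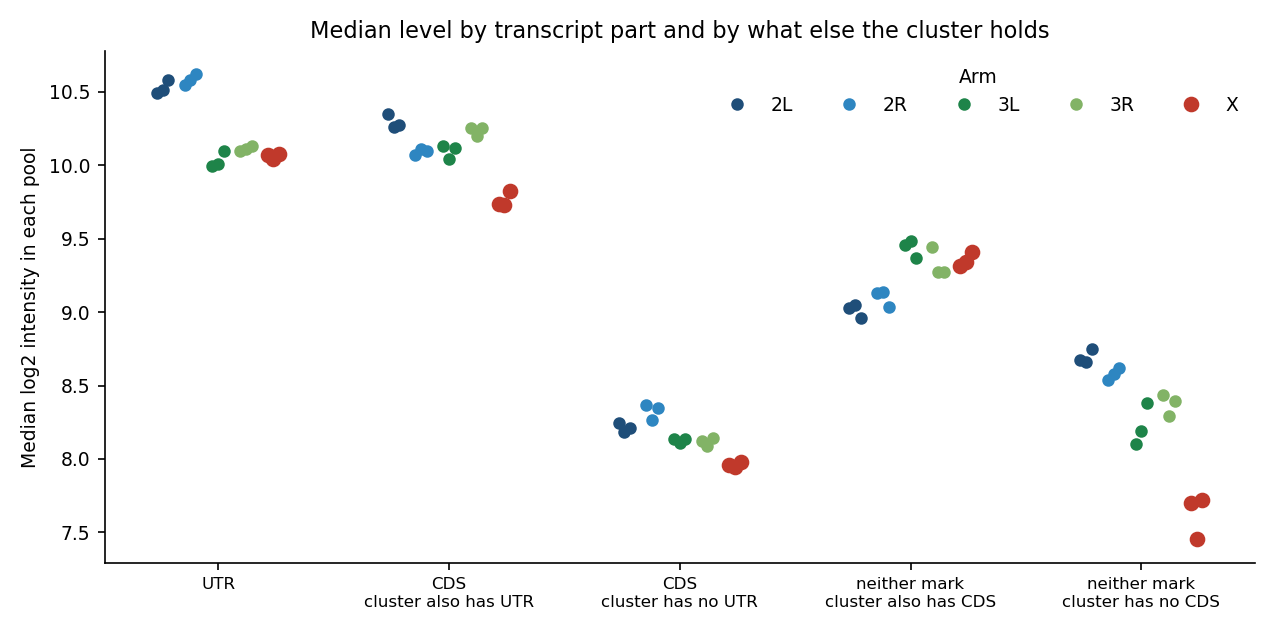
Median log2 intensity of each chromosome arm in each of the 3 pools (1 point per pool), for UTR probe sets and for CDS and neither-mark probe sets divided by what else their cluster holds. X lies under all 4 arms in both CDS classes and, by the widest margin, among neither-mark probe sets whose cluster has no CDS probe set. Among those whose cluster also has one, X lies among the arms in pools 1 and 2 and above all 4 in pool 3.

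Where a cluster was read both through coding sequence and UTR, the UTR probe set was more often the brighter on X and over the pooled autosomes. In 65 X clusters with both marks, the median UTR minus CDS difference was 0.23, 0.41 and 0.15 log2 in pools 1 to 3, a mean of 0.26 ± 0.13 (SD, n = 3). In 652 autosomal clusters it was 0.07, 0.12 and 0.12, a mean of 0.11 ± 0.03. The pool values did not overlap, but the X value lay beside that of arm 2L, 0.26 ± 0.06. On 3R the mean was -0.03 ± 0.04. The UTR probe set was the brighter in 40 of 65 X clusters (61.5%) and in 54.1% of the autosomal ones.

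Along the distribution, for all marks and for CDS, the X difference tended to widen from the 30th to the 90th percentile. It was widest at the 99th. For all marks it lay, from the 10th to the 95th percentile, between -0.27 ± 0.06 log2 (SD, n = 3) at the 30th and -0.46 ± 0.11 at the 20th. At the 75th it was -0.36 ± 0.002, at the 90th -0.40 ± 0.01 and at the 99th -0.59 ± 0.05. At the 5th percentile, below the background cut-off on X and on the autosomes, it was -0.11 ± 0.12, a mean smaller than its SD. The 10th percentile also lay below the cut-off on both. The 20th did so on X, where 78.4% to 78.8% of the probe sets passed in single pools. For CDS probe sets the difference lay between -0.19 ± 0.11 at the 30th and -0.48 ± 0.02 at the 90th percentile over the same span. At the 99th it was -1.26, -1.16 and -1.10 log2 in pools 1 to 3. The X level at that point was 12.9, and few X probe sets lie above it. A level of 12 or more, a wider class, was found for 28 of 1118 (2.50%), against 4.04% of the autosomal CDS probe sets. For probe sets with neither mark it was -0.84 ± 0.07 log2 (SD, n = 3) at the 25th percentile, -0.13 ± 0.06 at the 90th, -0.25 ± 0.14 at the 95th and -0.79 ± 0.18 at the 99th, narrowest near the 90th and wide again at the bright end.

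X probe sets were also unevenly placed along the autosomal scale of levels. With the autosomal levels divided into 10 equal classes, each of the 4 dimmest classes held between 10.9% and 11.8% of the X probe sets. The 2 brightest held 6.91% and 7.56%. X supplied 4 of the 100 brightest placed probe sets, 30 of the brightest 500 (6.00%) and 68 of the brightest 1000 (6.80%). It supplied 112 of the dimmest 1000 (11.2%). The X share of all placed probe sets was 9.39%. The dimmest 1000 had mean intensities below the background cut-offs, so their order may be noise.

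**Figure D4:**
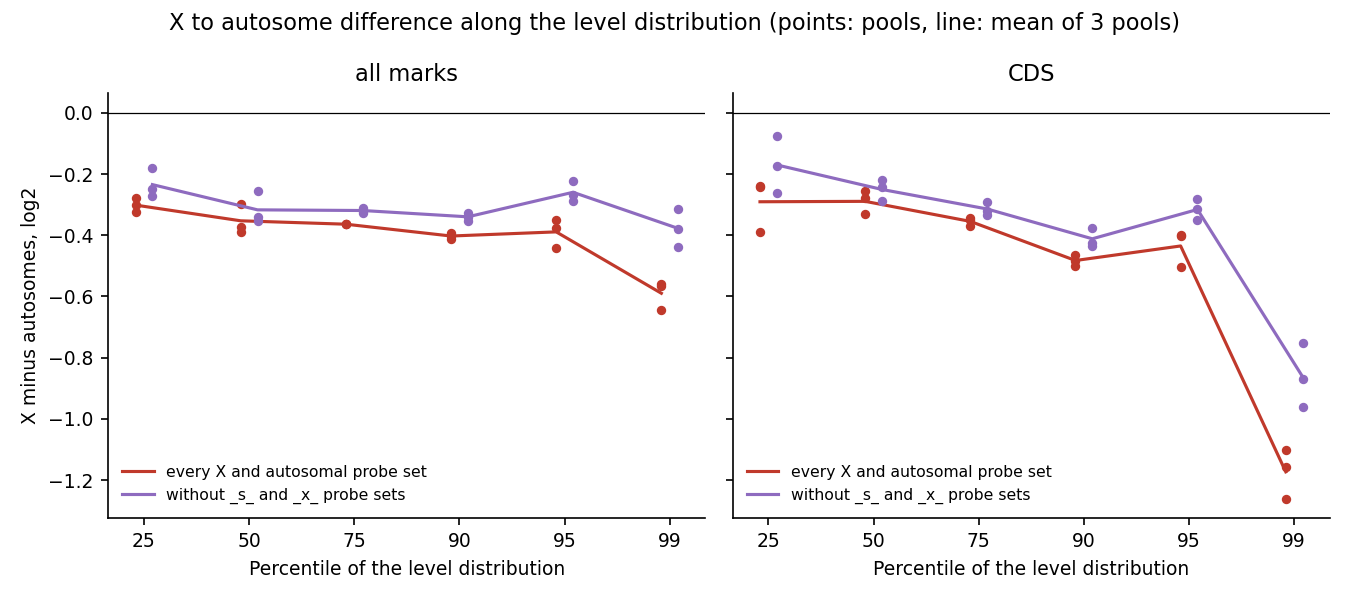
X minus autosomal log2 intensity at 6 percentiles of the level distribution, for all marks and for CDS, with each pool as a point and the mean of 3 pools as a line. Every difference shown is below 0 and the largest is at the 99th percentile of CDS, where it is -1.17 on average with every probe set and smaller without those that have _s_ or _x_ in the ID. Without them the 99th percentile of all marks gives -0.31, -0.38 and -0.44 in pools 1 to 3.

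Part of the bright end belonged to probe sets that can read several transcripts. By Affymetrix convention _s_ and _x_ in an ID mark probes shared between different transcripts, so that such a probe set may sum the RNA of a gene family and its arm is that of a single member. There were 66 on X (4.70%) and 937 on the autosomes (6.92%). Their median intensity on X was 183.2, 153.8 and 189.2 in pools 1 to 3. On the autosomes it was 492.9, 478.9 and 476.5, and the arms' median levels ran from 8.60 to 10.02, all above the 7.36 of X. Of the autosomal ones 152 (16.2%) had a level of 12 or more, and of those on X 6 did. Without them the difference in level for all marks was -0.31 log2 at the median, -0.34 at the 90th percentile, -0.28 at the 95th and -0.33 at the 99th, where it had been -0.54 with every probe set. By this measure it was no wider at the 99th percentile than at the 90th. Array by array it was -0.31, -0.38 and -0.44 log2 at the 99th in pools 1 to 3. At the 90th it was -0.34, -0.33 and -0.35, so the gap was wider at the 99th in pools 2 and 3. For CDS the difference in level still widened, from -0.33 at the 95th percentile to -0.80 at the 99th, where it had been -1.15. This set was looked at after the values had been seen.

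Summed over the array, X transcripts gave less signal than their number would. They took 7.13%, 7.01% and 7.01% of the summed intensity of placed probe sets in pools 1 to 3, a mean of 7.05% ± 0.07 (SD, n = 3), with 9.39% of the probe sets. The ratio of these shares was 0.751 for X. It lay between 0.921 on 3L and 1.08 on 2R for the autosomal arms. Signal was about as concentrated on X as elsewhere, with the brightest 1% of probe sets holding 23.3% of the X sum and 22.8% of the autosomal sum. Without the _s_ and _x_ probe sets the X share was 7.84%, for 9.59% of the probe sets.

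A smaller share of X than of autosomal probe sets lay above background. Of all placed mosquito probe sets 76.2% passed, and of the X probe sets 1027 of 1403 (73.2%) did, against 76.5% on the autosomes. Of the 376 that did not, 225 were at or below the cut-off in every pool. By part, 805 of 1118 CDS probe sets (72.0%) passed on X, against 74.3% on the autosomes. For UTR it was 66 of 68 (97.1%) on X and 96.2% on the autosomes, so X was not the lower there. For neither mark, where the gap was widest, it was 156 of 217 (71.9%) and 83.0%. Among neither-mark probe sets in clusters without CDS the share was 67.1% on X and 80.7% on the autosomes. A filter on level keeps the bright members of a dim group, so values above background describe only those that passed. Among them the X difference was -0.25 ± 0.04 log2 (SD, n = 3) for all marks. For neither mark the difference in median level was -0.19 log2 where it had been -0.59 without the filter. With the 99th percentile as cut-off it was -0.23 for all marks and -0.091 for neither mark.

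The level of a probe set went with its cluster number in the same way on X as on the autosomes. The sources used here do not say what orders these numbers. CDS probe sets were divided by cluster number into 20 equal ranges per arm, with 47 to 62 X probe sets in each. On X the median level was 8.59 in the lowest range, 10.68 in the next and 6.08 in the last. Spearman's rho between number and level was -0.53 over the 1118 X CDS probe sets and from -0.52 to -0.46 on the autosomal arms, given as a description, since the probe sets share arrays and, within a cluster, transcripts. Ranges of different arms match in relative position only, not in number. The last CDS cluster was 1125 on X and 2108 to 3630 on the autosomal arms. Range by range, the X median was below the autosomal median in 15 of 20 (13, 15 and 16 in pools 1 to 3). The median over ranges of the difference was -0.22 log2. X was below all 4 arms in 8 ranges, among them in 10 and above them in 2. The differences ran from -1.003 log2 in range 12 to 0.86 in range 1.

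**Figure D5:**
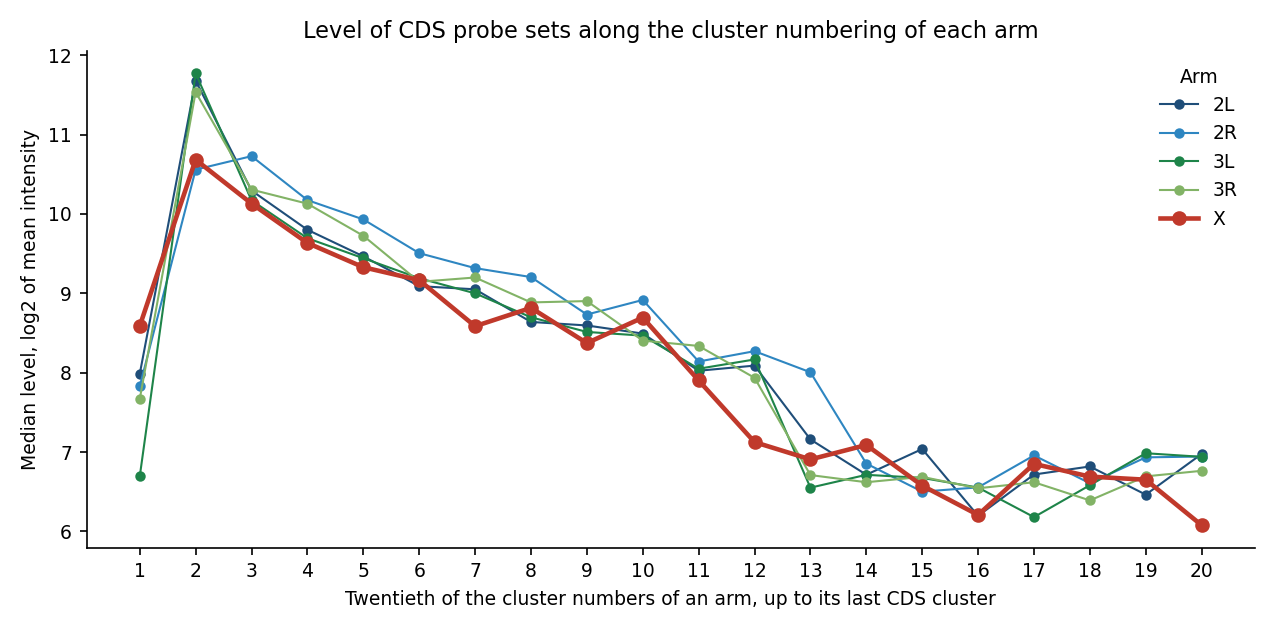
Median level (log2 of mean intensity of 3 arrays) of CDS probe sets in 20 equal ranges of cluster number up to the last CDS cluster of each chromosome arm. All 5 lines peak in the second or the third range and are lowest beyond the twelfth. X lies above the autosomal lines in range 1 (8.59) and below them in range 12 (7.13).

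The brightest X transcripts sat near the peak of that numbering. Of the 20 brightest X probe sets, 13 had cluster numbers from 67 to 83, a range of 28 X probe sets with a median intensity of 7669, against 286.8 for the 79 probe sets with lower numbers. This range, the narrowest that holds 13 of the 20, was chosen after its values had been seen. The 20 had mean intensities from 8523 to 29574, belonged to 15 clusters and held 27.3% of the X sum. Of them 11 were marked CDS, 4 UTR and 5 neither, and their SD between pools was at most 0.34 log2.

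The brightest was Ag.X.83.0_CDS_a_at, with intensities of 25790, 29452 and 33480 in pools 1, 2 and 3, a mean of 29574 ± 3846 (SD, n = 3). It was highest in pool 3 and lowest in pool 1. The other probe set of its cluster, which carries neither mark, gave 13235, 13986 and 15748 and had the same order of pools. Ag.X.75.0_CDS_at was next, with 26309, 25772 and 27817, a mean of 26633 ± 1061 (SD, n = 3), a coefficient of variation of 3.98%. Even so, 38 autosomal probe sets were brighter than the brightest on X, up to a mean of 56443.

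X probe sets varied between pools about as much as autosomal ones of the same level. For this, log2 values were centred per array on the median of the mosquito probe sets above background, and the SD of the log2 values over the 3 pools was taken. Its median was 0.18 over the 1027 X probe sets above background and 0.17 over the 10360 autosomal ones. In 5 classes of level the X values were 0.31, 0.21, 0.18, 0.13 and 0.12 from dim to bright, and the autosomal ones 0.30, 0.21, 0.16, 0.13 and 0.12. X had more of its members in the dim classes, 227 in the dimmest against 163 in the brightest. An SD above 0.5 log2 was found for 60 X probe sets (5.84%), near the background share of 5.73% over all placed probe sets above background.

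The 2 X probe sets above background with the widest spread each had their lowest value in pool 2. Ag.X.836.1_a_at read 638.1, 98.0 and 489.9 in pools 1 to 3, an SD of 1.46 log2, with pools 1 and 3 close together. Ag.X.473.0_CDS_at read 166.6, 63.0 and 363.4, an SD of 1.28 log2, with the 3 pools far apart and pool 2 near the background cut-off of 51.8. With 1 array per pool, neither difference has a replicate check.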

How the data were processed

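Whole-body RNA of 3 pools of 5 females was hybridised to 3 arrays (10 µg of total RNA per sample, per the labels' protocols). The authors deposited a linear intensity per probe set and array. Per the submitters' processing notes, the array software GCOS 1.1.1 was used. The sources used here do not give the summarisation method or genome build. The mean of a column after trimming 2% at each end was 500.3, so arrays had been scaled to a common mean, which fixes no chromosome's level. The number of arrays limits the precision. cDNA was primed at the poly(A) tail, per the labels' protocols, which favours 3' parts of transcripts.

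Arm, cluster number, mark and suffix letter were read from the ID. Probe sets marked UNKN (1938), which may include X transcripts, were not compared. Differences are of medians of log2 intensity, X minus the 4 autosomal arms, within each array, with no pseudocount. They were tested over pools with the exact sign-flip permutation test, which with 3 arrays cannot go below 0.25. Probe sets are not replicates, and no test was run over them. The labels call the pools biological samples. Background cut-offs were 57.4, 51.8 and 64.4 in pools 1 to 3. Without gene names, the IDs printed are the 2 brightest X probe sets and the 2 above background with the largest SD between pools. The rule for members used IDs alone, but members, groups and alternatives were chosen with earlier results of these data known. Scripts, run with Python 3.11.15, NumPy 2.4.6, pandas 2.3.3 and SciPy 1.17.1, were tested on simulated data with known shifts. For UTR and neither mark the error allowed in that test was wider than the simulated shift, so it was a coarse check there. For CDS the error allowed was narrower than the simulated shift but wider than the difference reported above. The alternatives tried were background cut-offs at the 95th and 99th percentiles, log2(intensity + 50), means, averaging after log2, quantile normalization, omission of _s_ and _x_ probe sets, 1 value per cluster, and leaving out each replicate. Reweighting the autosomes to the marks of X was added after seeing the data.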

Additional observations from a re-analysis of the deposited data

How the results depend on the processing

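All 45 alternatives of the 4 X minus autosome differences (all marks, CDS, UTR and neither mark) stayed below 0. For all marks the value of -0.36 log2 became -0.25 and -0.23 with the 95th and 99th percentile cut-offs, -0.31 with log2(intensity + 50) and -0.31 without _s_ and _x_ probe sets. The reweighting to the marks of X, chosen after seeing the data, gave -0.36. For CDS the value of -0.29 became -0.23 and -0.25 with the 2 cut-offs and -0.25 with log2(intensity + 50). For UTR -0.27 became -0.18 with means. For neither mark -0.59 became -0.19 and -0.091 with the cut-offs, by the dim probe sets they leave out. Leaving out each replicate gave -0.39 to -0.33 for all marks, -0.34 to -0.25 for CDS, -0.32 to -0.25 for UTR and -0.68 to -0.59 for neither mark. The share of X above background, 73.2%, was 66.4% with the 99th percentile, 73.8% without _s_ and _x_ probe sets and 74.8% to 75.2% without a replicate. Without a replicate the cut-off has to be passed in only 2 arrays, so that share cannot fall. The X share of summed intensity, 7.05%, was 7.84% without _s_ and _x_ probe sets. The median SD of X, 0.18, was 0.17 with the 99th percentile, 0.19 without _s_ and _x_ probe sets and 0.14 to 0.16 without a replicate, where an SD rests on 2 values. For changes with no construction named here, the cause was not tested. Samples could not be compared in pairs because all arrays belong to 1 group, but X and autosomes were compared within each array. Signal close to background limits what the dim end can show, and differences in probe affinity were not measured.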

Other observations

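Probe sets of the same X cluster often differed in level. On X, 141 of 1242 clusters (11.4%) held more than 1 probe set, at most 4, and the median gap between the brightest and the dimmest was 1.00 log2. The gap was above 2 log2 in 27 of the 141 (19.1%), and in 24.2% of the 1446 autosomal clusters with more than 1. The median autosomal gap was 1.02 log2.

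Probe sets with the suffix _a_, which by Affymetrix convention read several transcripts of a single gene, were brighter than those without a suffix letter on X (median intensities 636.8 over 311 and 234.1 over 1026 probe sets). The autosomal medians were 720.9 and 276.9. The X minus autosome differences in these classes were -0.18 and -0.24 log2 in median level.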
